A study of Mus musculus with 12 samples.

Results

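The heat-shock chaperone genes described here are Hspa1a, Hspa1b, Hspa8, Hsph1, Dnajb1, Hsp90aa1, Hsp90ab1, Hspb1, Hsf1 and Bag3, 10 genes chosen by name. Every ATAC-seq peak whose nearest gene in the deposited tables was one of them was taken, whatever its values, which gave 232 of 281974 peaks. These were 80 of 91770 peaks in microglia, 93 of 107627 in NeuN+ nuclei and 59 of 82577 in Olig2+ nuclei, and each gene had at least 1 peak in each table. ATAC-seq uses a transposase to cut and tag open DNA, so that the number of tags in a peak measures how accessible the region is, not how much RNA the gene makes. The libraries came from forebrain of C57BL/6 mice at 4 months of age, either wild-type (WT) or SgshKO. Sgsh encodes a lysosomal sulfatase that takes part in breaking down heparan sulfate, and its loss in humans causes Sanfilippo syndrome type A. Each of the 3 sorts had 2 WT and 2 SgshKO libraries, so n = 2 in each of 6 groups. Microglia were sorted as unfixed single cells carrying CD11b and CX3CR1 with low CD45. NeuN+ nuclei, taken as neuronal, were negative for PU.1 and OLIG2, and Olig2+ nuclei, taken as oligodendrocyte lineage, were negative for PU.1 and NeuN. Both kinds of nuclei came from tissue lightly fixed with formaldehyde, so sort and handling cannot be told apart. The labels do not give the type of Sgsh allele, the sex, the number of animals per library, any pooling or any batch. P-values therefore measure only the spread between these libraries, which may be technical.

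Heat-shock proteins are chaperones that hold unfolded proteins and help them fold. HSF1, the product of Hsf1, is the transcription factor that binds heat shock elements, repeats of GAA and its reverse complement TTC, and turns the inducible members on under stress. Hspa8 and Hsp90ab1 encode constitutive forms present in most cells, whereas Hspa1a, Hspa1b, Hspb1 and, in part, Hsp90aa1 and Bag3 are known for strong induction by heat or proteotoxic stress. In brain these chaperones are studied for their handling of misfolded and aggregated proteins and, with BAG3, of cargo sent to lysosomes.

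Promoter sequence was at hand for 6 of the genes (Hspa1a, Hspa1b, Hspb1, Hsph1, Dnajb1 and Bag3) in RefSeq, assembly GRCm38.p6, whose coordinates are those of mm10. The 250 bases before the start of 5 of them are printed here 5′ to 3′ because peaks lay over them and because they hold the letters that HSF1 is known for, or, in Dnajb1, a CCAAT box. Capitals mark GAANNTTC or TTCNNGAA, the 2-unit forms of the heat shock element, and in Dnajb1, which holds neither, ATTGG, the reverse complement of CCAAT.
Hspa1a, chr17:34972157-34972406, minus strand: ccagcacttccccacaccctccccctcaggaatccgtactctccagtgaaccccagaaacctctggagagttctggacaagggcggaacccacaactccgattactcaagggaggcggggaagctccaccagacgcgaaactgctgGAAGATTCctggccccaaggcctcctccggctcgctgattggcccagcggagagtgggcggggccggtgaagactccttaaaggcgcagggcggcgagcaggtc
Hspa1b, chr17:34959239-34959488, minus strand: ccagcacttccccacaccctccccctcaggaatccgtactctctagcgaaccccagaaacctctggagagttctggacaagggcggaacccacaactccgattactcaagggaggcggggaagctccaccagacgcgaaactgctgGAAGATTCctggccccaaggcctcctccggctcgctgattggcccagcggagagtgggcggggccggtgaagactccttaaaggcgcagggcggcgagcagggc
Hspb1, chr5:135887669-135887918, plus strand: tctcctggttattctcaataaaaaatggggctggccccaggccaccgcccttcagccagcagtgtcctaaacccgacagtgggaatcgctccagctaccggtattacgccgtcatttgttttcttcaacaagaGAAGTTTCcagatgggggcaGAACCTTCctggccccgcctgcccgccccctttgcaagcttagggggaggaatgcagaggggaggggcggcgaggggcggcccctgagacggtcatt
Hsph1, chr5:149636337-149636586, minus strand: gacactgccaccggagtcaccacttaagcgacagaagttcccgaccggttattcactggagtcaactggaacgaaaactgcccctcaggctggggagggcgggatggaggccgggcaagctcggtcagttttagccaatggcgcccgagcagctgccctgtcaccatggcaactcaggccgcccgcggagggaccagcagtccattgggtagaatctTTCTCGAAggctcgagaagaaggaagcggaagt
Dnajb1, chr8:83607925-83608174, plus strand: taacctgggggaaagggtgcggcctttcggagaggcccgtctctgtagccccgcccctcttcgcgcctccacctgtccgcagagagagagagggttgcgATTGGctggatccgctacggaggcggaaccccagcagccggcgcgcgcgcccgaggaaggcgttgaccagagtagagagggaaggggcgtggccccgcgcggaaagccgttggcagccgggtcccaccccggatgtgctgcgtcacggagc

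The Hspa1a and Hspa1b stretches were identical at 247 of 250 aligned bases (98.8%), with 3 mismatches and 0 gaps, so the split of reads between these copies is uncertain. Both held GAANNTTC 104 bases before the start, and Hspb1 held it 117 and 97 bases before its start. Hsph1 held TTCNNGAA 33 bases before the more upstream of its starts. Of 32851 promoter windows of the same length, 6.69% held GAANNTTC, 7.17% held TTCNNGAA and 0.466% held a 3-unit element (GAANNTTCNNGAA or TTCNNGAANNTTC, which contain the 2-unit forms). None of the 6 genes had a 3-unit match. CCAAT on either strand was in 4 of the 6 genes (Hspa1a, Hspa1b, Hsph1 and Dnajb1) and in 33.8% of all windows. CACGTG, the E-box, was in 1 gene, Hsph1, before its more downstream start, and in 6.02% of all windows. TATAAA, in 12.4% of windows, was in none of the 6 genes. The capitals of Hspa1a lay inside its microglia and NeuN+ peaks, those of Hspa1b inside its microglia and Olig2+ peaks, and those of Hsph1 inside a peak of each sort. Of the capitals of Hspb1, the pair nearer the start lay inside its microglia peak. A match is a run of letters and was not tested as a binding site.

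Library totals ran from 10771659 to 11804222 tags in microglia, 14326703 to 17706971 in NeuN+ nuclei and 15044194 to 19555924 in Olig2+ nuclei, with a median of 17 to 39 reads per peak. Tags inside peaks made up 48.7% to 67.4%, 21.2% to 26.7% and 30.9% to 31.8% of the libraries. In NeuN+ nuclei this share moved with genotype, at 26.7% and 25.9% in WT and 21.5% and 21.2% in SgshKO. Library totals of both nuclei sorts were also lower in each SgshKO library than in each WT library. The part of share and depth in the falls of NeuN+ peaks was not tested. Values are normalized tags, scaled by the authors to 10000000 tags per library. Each sort had its highest marker sum for its own list: summed tags within 1000 bp of the starts of 10 microglia markers were 2173 to 2794 in microglia, with 9 of 10 genes having a peak there. Other lists also had peaks in microglia. Oligodendrocyte markers summed to 386 to 470 tags there (6 of 10 genes) and neuron markers to 246 to 447 (4 of 10). Endothelial markers summed to 252 to 372 (5 of 10) and astrocyte markers to 202 to 288 (5 of 10). The 10 neuron markers summed to 1146 and 1240 tags in the WT and 685 and 696 in the SgshKO NeuN+ libraries, and the 10 oligodendrocyte markers to 3547 and 3586 in the WT and 2941 and 2945 in the SgshKO Olig2+ libraries. Blood myeloid markers had a start-site peak for 3 of 10 genes in microglia, summing to 50.8 and 57.0 in WT and 59.4 and 83.1 in SgshKO, and for 0 of 10 in both nuclei sorts. The microglia marker sums in microglia overlapped between genotypes, at 2192 and 2580 in WT and 2173 and 2794 in SgshKO. In NeuN+ nuclei the fall was not limited to neuron markers. There the oligodendrocyte markers fell from 175 and 200 to 97.0 and 105, and the microglia, astrocyte and endothelial markers fell too. In Olig2+ nuclei no list other than the oligodendrocyte markers fell. The microglia markers there rose from 233 and 240 in WT to 271 and 284 in SgshKO. Astrocyte and endothelial markers rose too without overlap, and the neuron markers overlapped between genotypes. The part of these sums in the member peaks was not tested. In such sorted pools, fewer cells of a kind and less accessible DNA per cell cannot be told apart.

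SgshKO was compared with WT in each table with limma on log2(normalized tags + 1), adjusted by Benjamini-Hochberg over every peak of the table, and a peak was called at an adjusted p under 0.05. In microglia 6 of the 80 member peaks were called (7.50%), against 7.37% of all peaks; 2 were higher in SgshKO and 4 lower, against 5.05% and 2.33% of all peaks. Within 1000 bp of a start site 2 of 23 member peaks were called, both higher, against 9.8% of all such peaks called, 8.59% higher and 1.2% lower. In NeuN+ nuclei 28 of 93 were called (30.1%), 4 higher and 24 lower, against 29.8% of all peaks called, 10.2% higher and 19.6% lower. Of the 21 near a start site, 8 were called, all lower, against 46.6% of such peaks, 1.74% higher and 44.9% lower. In Olig2+ nuclei 14 of 59 were called (23.7%), 2 higher and 12 lower, against 19.8% of all peaks, 8.17% higher and 11.7% lower. Of the 22 near a start site, 2 were higher and 4 lower, against 20.3% called, 12.7% higher and 7.56% lower. The share of member peaks called was thus near that of all peaks in microglia and NeuN+ nuclei, and the members did not move as 1 group. Beyond 1000 bp, 7.02%, 22.2% and 21.6% of member peaks were called lower in microglia, NeuN+ and Olig2+ nuclei. Of all such peaks 2.72%, 12.6% and 13% were. Called higher were 0%, 5.56% and 0% of these member peaks, against 3.8%, 12.6% and 6.7%. Of the 16 distal falls in NeuN+ nuclei, 9 were at peaks assigned to Hspb1. DESeq2 on recovered reads called 0 distal member peaks in NeuN+ nuclei in either direction. In the directions with 0 start-site calls, limma had 0 microglia peaks lower and 1 NeuN+ peak higher at an unadjusted p under 0.05. In those directions edgeR on recovered reads called 0 and 2, and DESeq2 0 and 0.

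The median log2 change of member peaks was -0.17 in microglia (all peaks -0.08), -0.28 in NeuN+ nuclei (all peaks -0.23) and -0.33 in Olig2+ nuclei (all peaks -0.07). Near start sites it was 0.07, -0.31 and -0.05, against 0.03, -0.53 and 0.05. Beyond 1000 bp it was -0.40, -0.25 and -0.44, against -0.12, -0.11 and -0.13. Scaling to the tags in peaks moved the median of all peaks from -0.08 to -0.28 in microglia and from -0.23 to 0.05 in NeuN+ nuclei. With it the member calls were 3 higher and 13 lower in microglia and 8 higher and 11 lower in NeuN+ nuclei. Quantile normalization gave 1 higher and 4 lower, 3 higher and 7 lower, and, in Olig2+ nuclei, 2 higher and 5 lower. Median-of-ratios scaling gave 6 higher and 13 lower in NeuN+ nuclei. Without either SgshKO library of the NeuN+ nuclei, limma called 0 peaks in the whole table, with 33265 and 32556 peaks at an unadjusted p under 0.05, so a NeuN+ call lost there says nothing of the single peak, and only log2 changes are given for it. With 1 library left out, the median log2 change of member peaks ran from -0.25 to -0.01 in microglia. It ran from -0.40 to -0.24 in NeuN+ nuclei and from -0.37 to -0.31 in Olig2+ nuclei. In each sort the number of calls in the whole table also moved with the library left out. Calls lost or gained in these fits therefore follow the whole table as well as the single peak.

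**Figure D1:**
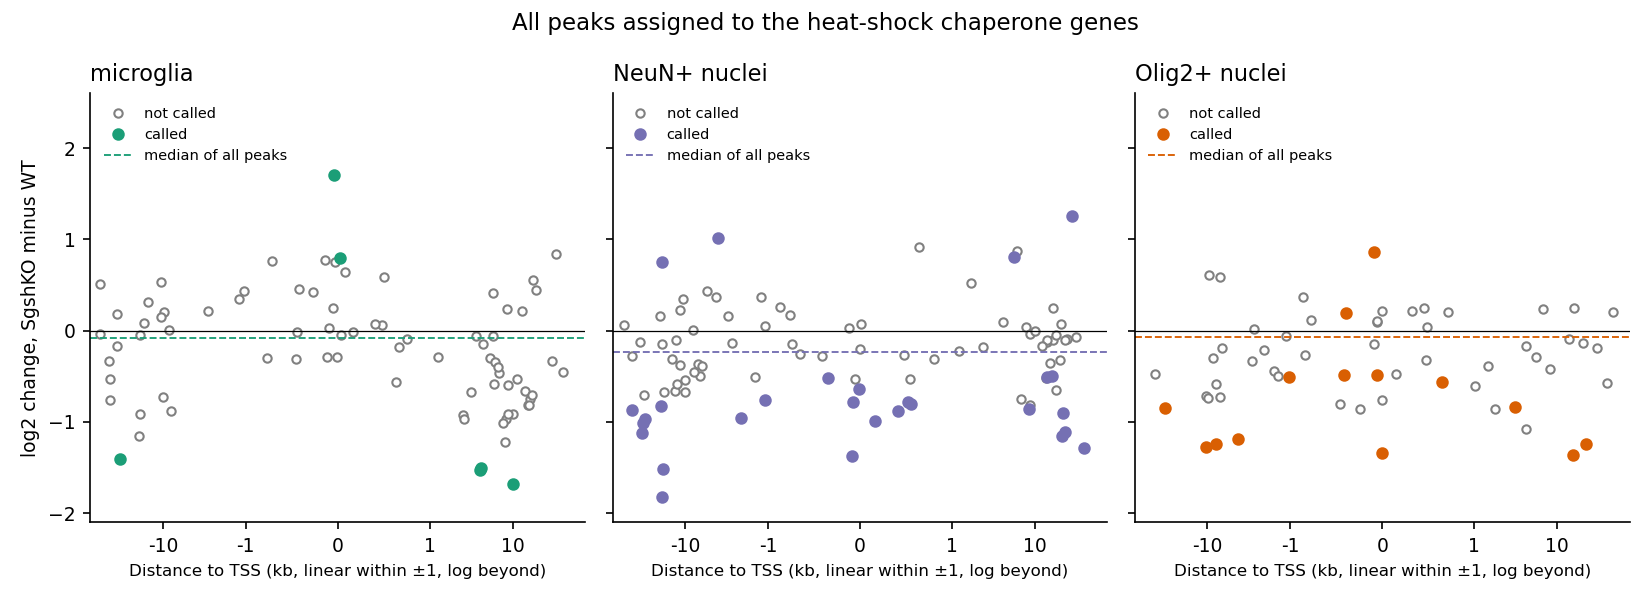
Log2 change (SgshKO minus WT, of log2(normalized tags + 1)) of all 80, 93 and 59 member peaks against their signed distance to the start site in kb, in microglia, NeuN+ nuclei and Olig2+ nuclei. Filled points were called and the dashed line is the median of all peaks; both peaks called higher in microglia lie at a start site, and 24 of the 28 peaks called in NeuN+ nuclei lie below 0.

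Hsf1, the regulator of the heat-shock response, showed the largest rise of the member start-site peaks in microglia. The peak (chr15:76477187-76477449, centred 44 bp before the start) had 276 and 252 normalized tags in the WT libraries and 948 and 782 in the SgshKO libraries. Both SgshKO libraries were far above both WT libraries. This is a 3.28-fold difference of means, or a log2 change of 1.70 ± 0.25 (SE; limma, adjusted p = 1.57e-05). It was called under each of 9 alternative settings, with a log2 change of 1.14 to 1.77, and without each library in turn. In NeuN+ nuclei the Hsf1 start-site peak went the other way, with 223 and 234 tags in WT and 143 and 150 in SgshKO. The groups did not overlap, and the log2 change was -0.64 ± 0.09 (limma, adjusted p = 9.05e-05). That change lay 0.10 below the median of all start-site peaks of that table, -0.53, and with quantile normalization it was -0.07 (adjusted p = 0.566). The log2 change was -0.61 and -0.67 without SgshKO library 1 and 2. In Olig2+ nuclei the peak had 208 and 222 tags in WT and 256 and 244 in SgshKO, a log2 change of 0.22 ± 0.09 that was not called (limma, adjusted p = 0.0738), and the tools differed: edgeR on recovered reads called it (adjusted p = 0.0102) and DESeq2 did not (adjusted p = 0.150). A second NeuN+ peak 416 bp after the start fell from 23.8 and 22.03 to 9.07 and 15.9 tags (limma, log2 change -0.87, adjusted p = 0.0247). That call was lost in 5 of 9 alternative settings, edgeR and DESeq2 among them, and without either WT library, and the log2 change ran from -0.50 to -1.25 with 1 library left out. Per kb of peak, the WT start-site levels of Hsf1 were close in the 3 sorts, at 1048 and 957 in microglia, 938 and 982 for NeuN+ and 963 and 1030 for Olig2+ nuclei, and they overlapped. The region is shared: Bop1, which encodes a ribosome-assembly protein, has an end 113 bp from the Hsf1 start in RefSeq, and the microglia peak covers both gene ends. Its tags cannot be assigned to 1 of these genes.

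**Figure D2:**
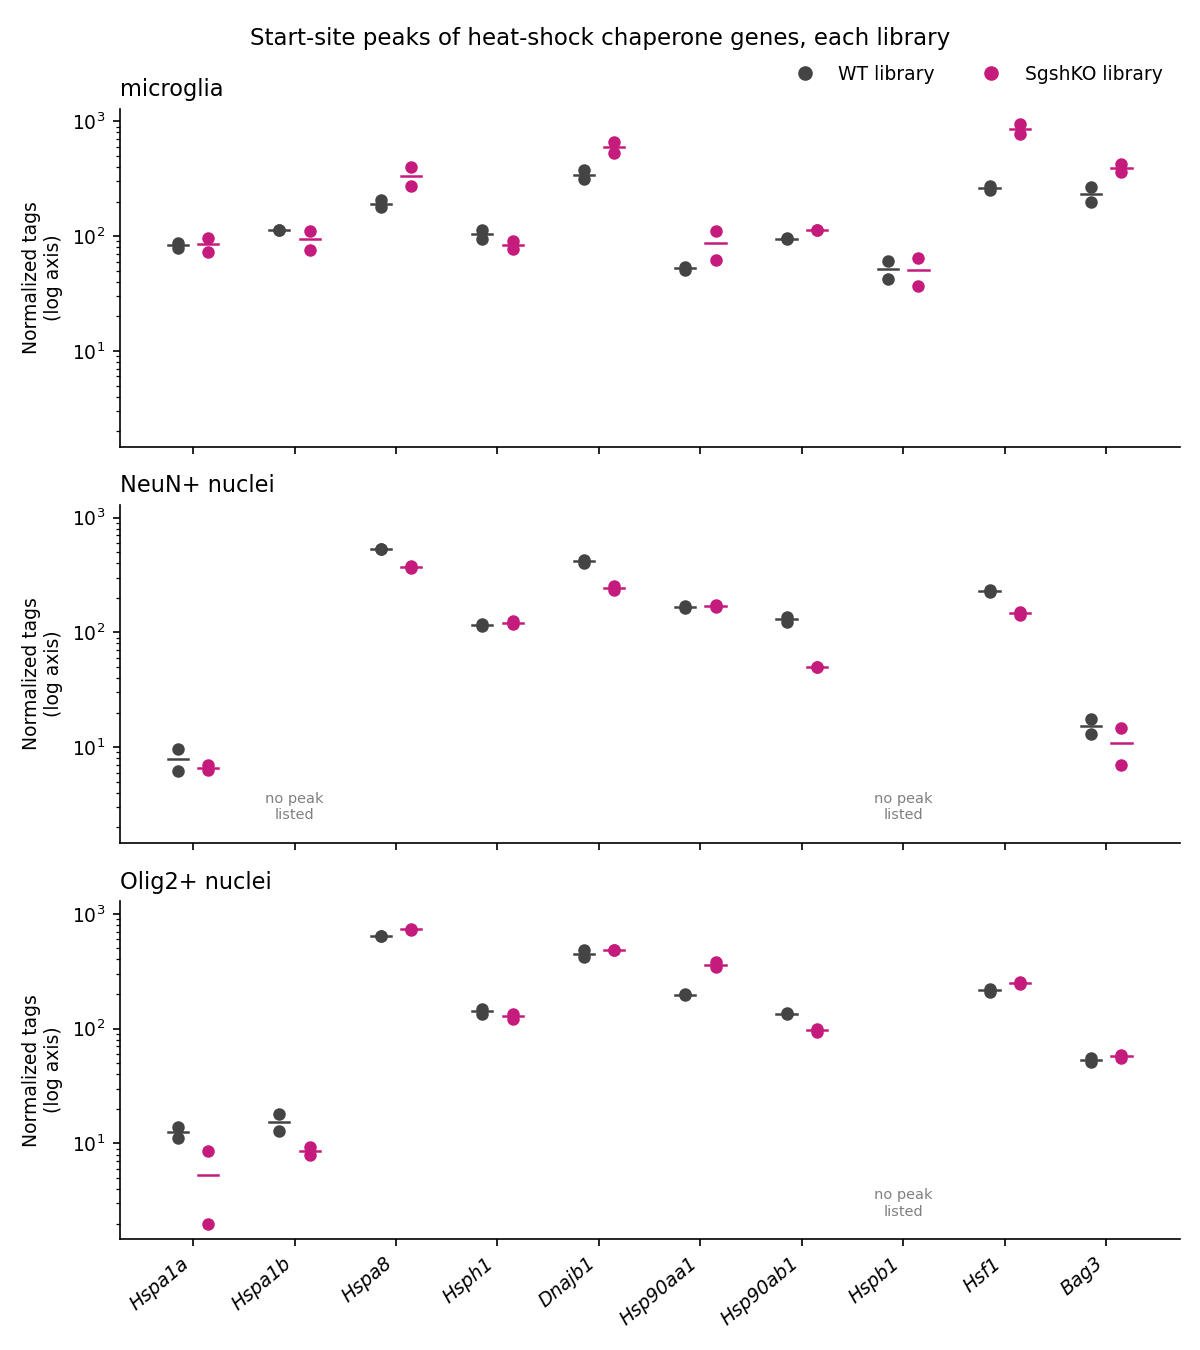
Normalized tags (log axis) at the start-site peak of each member gene in microglia, NeuN+ nuclei and Olig2+ nuclei; each point is a library, the bar is the mean of 2, and grey text marks a gene with no peak listed within 1000 bp. In microglia the SgshKO libraries of Hsf1 sit at 782 and 948 tags against 252 and 276 in WT, and Hspa1a and Bag3 sit lower in both nuclei sorts than in microglia.

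Hspa1a and Hspa1b encode the inducible HSP70 proteins, and their start-site peaks held more tags in microglia than in the nuclei sorts that had one listed. Hspa1a had 78.6 and 87.3 tags in WT microglia and 97.0 and 73.3 in SgshKO, and Hspa1b had 113 in both WT libraries and 112 and 76.1 in SgshKO. The genotypes overlapped for Hspa1a and were separated by a small gap for Hspa1b, and neither was called (limma, log2 changes 0.03 and -0.29, adjusted p = 0.975 and 0.630). The sign for Hspa1a turned to -0.18 with scaling to tags in peaks and to -0.08 with quantile normalization. In NeuN+ nuclei Hspa1a had 6.23 and 9.60 tags in WT and 6.28 and 6.98 in SgshKO, and no peak of Hspa1b was listed within 1000 bp, the nearest lying 3026 bp before its start. In Olig2+ nuclei Hspa1a fell from 14.0 and 11.3 tags in WT to 8.61 and 1.99 in SgshKO (limma, log2 change -1.34 ± 0.40, adjusted p = 0.0193). Those values rest on 27, 22, 14 and 3 reads. The call was lost with quantile normalization (adjusted p = 0.0662) and without WT library 1, WT library 2 or SgshKO library 2 (adjusted p = 0.212, 0.104 and 0.374), and the log2 change was -0.50 without SgshKO library 2. The Olig2+ start-site peak of Hspa1b had 18.2 and 12.8 tags in WT and 9.22 and 7.98 in SgshKO, a log2 change of -0.76 that was not called (limma, adjusted p = 0.0757). Hspa1l, a testis-enriched HSP70 gene, lies 547 bp from Hspa1a.

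Hspa8 encodes the constitutive HSP70 of most cells, HSC70, which also uncoats clathrin vesicles and carries proteins to lysosomes in chaperone-mediated autophagy. Its start-site peak in NeuN+ nuclei fell from 535 and 530 tags in WT to 376 and 365 in SgshKO (limma, log2 change -0.52 ± 0.06, adjusted p = 1.25e-05). Groups were well apart, yet the change was 0.01 from the median of all start-site peaks of that table, and with quantile normalization it was 0.02 (adjusted p = 0.783). Without SgshKO library 1 or 2 the log2 change was -0.54 and -0.50. In Olig2+ nuclei the peak rose from 644 and 636 tags to 724 and 738, which is small but beyond the spread between libraries (limma, 1.14-fold, log2 change 0.19 ± 0.05, adjusted p = 0.0101). It was not called without WT library 1 or 2 (adjusted p = 0.0510 and 0.0746). In microglia the start-site peak had 205 and 180 tags in WT and 272 and 398 in SgshKO, so the groups did not overlap. The log2 change was 0.78 ± 0.27 and missed the threshold (limma, adjusted p = 0.0731), as it did in DESeq2 on recovered reads (adjusted p = 0.0549), whereas edgeR called it (adjusted p = 0.0167). With quantile normalization it was 0.36 (adjusted p = 0.281). A neighbouring microglia peak 424 bp before the start had 277 and 205 tags in WT and 267 and 406 in SgshKO and overlapped between genotypes.

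Dnajb1 encodes HSP40, the J-domain partner that hands clients to HSP70, and its start-site peak changed in opposite directions in microglia and NeuN+ nuclei. In microglia it had 373 and 314 tags in WT and 665 and 531 in SgshKO, with both SgshKO libraries higher (limma, 1.74-fold, log2 change 0.79 ± 0.25, adjusted p = 0.0435). This call sits near the threshold: it was lost with quantile normalization (log2 change 0.23, adjusted p = 0.329) and without WT library 1, WT library 2 or SgshKO library 1 (adjusted p = 0.362, 0.745 and 0.0523). In NeuN+ nuclei the peak fell from 430 and 403 to 252 and 232 tags (limma, log2 change -0.78 ± 0.08, adjusted p = 1.99e-06), 0.25 below the median of start-site peaks. It was called under each of 9 alternative settings, with quantile normalization giving -0.22 (adjusted p = 0.0436), and the log2 change was -0.84 and -0.72 without SgshKO library 1 and 2. A second NeuN+ peak, 164 bp after another Dnajb1 start, fell from 56.1 and 55.4 to 32.1 and 23.5 tags (limma, log2 change -0.99, adjusted p = 0.00106), though DESeq2 did not call it (adjusted p = 0.130). In Olig2+ nuclei the start-site peak had 481 and 419 tags in WT and 486 and 481 in SgshKO, so the lower SgshKO library lay just under the higher WT library, and was not called (limma, log2 change 0.11, adjusted p = 0.265). The start of Dnajb1 lies 325 bp from Gm42029, a long non-coding RNA gene.

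Hsph1 encodes HSP110, a nucleotide exchange factor for HSP70. At its start site no sort had a called change: the peak had 112 and 94.9 tags in WT and 77.9 and 91.0 in SgshKO microglia (limma, log2 change -0.29, adjusted p = 0.629). In NeuN+ nuclei it had 119 and 113 in WT and 119 and 124 in SgshKO, a log2 change of 0.07 (limma, adjusted p = 0.643). That change stood 0.61 above the median of start-site peaks, and the peak was called higher after scaling to tags in peaks (log2 change 0.37, adjusted p = 0.0135) and after quantile normalization (0.62, adjusted p = 0.0106). In Olig2+ nuclei the peak over the start had 149 and 133 tags in WT and 133 and 122 in SgshKO and was not called (limma, adjusted p = 0.367). The stronger Olig2+ peak 414 bp upstream fell from 271 and 284 tags to 188 and 207, with the genotypes well apart (limma, log2 change -0.49 ± 0.09, adjusted p = 1.90e-04). It was called in each of 9 alternative settings and without each library.

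Bag3 encodes a co-chaperone that links HSP70 clients to selective autophagy. Its start-site peak in microglia had 271 and 199 tags in WT and 423 and 362 in SgshKO, without overlap. The log2 change of 0.75 ± 0.26 missed the threshold in limma (adjusted p = 0.0734) and passed it in edgeR and DESeq2 on recovered reads (adjusted p = 0.00694 and 0.0207), while with quantile normalization it was 0.29 (adjusted p = 0.281). A second microglia peak, 629 bp after the start, had 190 and 174 tags in WT and 127 and 118 in SgshKO and was not called (limma, log2 change -0.57, adjusted p = 0.237). NeuN+ nuclei had 17.6 and 12.99 tags in WT and 14.7 and 6.98 in SgshKO at the start, overlapping, and Olig2+ nuclei had 55.0 and 51.7 in WT and 58.4 and 55.8 in SgshKO (limma, adjusted p = 0.224 and 0.702). Around Bag3 in NeuN+ nuclei 3 distal peaks were called higher in SgshKO, 19268 and 4030 bp before and 27676 bp after the start. The last had 3.97 and 3.39 tags in WT and 9.07 and 11.4 in SgshKO, from 6 to 18 reads (limma, log2 change 1.26 ± 0.35, adjusted p = 0.0123). Another, in an intron 8580 bp after the start, was called lower (limma, log2 change -0.86, adjusted p = 0.0338). None of these 4 was called in DESeq2, or by limma without either WT library.

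Hsp90aa1 and Hsp90ab1 encode the stress-responsive and the constitutive cytosolic HSP90, which fold kinases and steroid receptors, and in Olig2+ nuclei their start sites changed in opposite directions. Hsp90aa1 rose from 196 and 200 tags in WT to 342 and 380 in SgshKO, with both SgshKO libraries far above WT. This is 1.83-fold, a log2 change of 0.86 ± 0.08 (limma, adjusted p = 7.83e-09), called under each of 9 alternative settings and without each library. Hsp90ab1 fell from 135 in both WT libraries to 99.0 and 93.7 in SgshKO (limma, 0.713-fold, log2 change -0.48 ± 0.12, adjusted p = 0.00412). That call was lost in DESeq2 (adjusted p = 0.124) and without WT library 1 or 2 (adjusted p = 0.0638 and 0.0613). The difference between these genes was not tested.

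In NeuN+ nuclei Hsp90ab1 had the largest fall of the member start-site peaks, from 137 and 124 tags to 49.6 and 49.5. The log2 change was -1.38 ± 0.13 (limma, adjusted p = 1.99e-06), 0.84 below the median of start-site peaks, and -0.89 to -1.39 over 9 alternative settings, each of which called it. Without SgshKO library 1 or 2 it stayed at -1.38. A peak 553 bp inside the gene fell from 77.0 and 57.6 to 43.3 and 33.0 tags, and one 1075 bp upstream from 89.5 and 71.2 to 47.5 and 46.4 (limma, adjusted p = 0.00389 and 0.00188). Both of these calls were lost with quantile normalization (adjusted p = 0.129 and 0.132), in DESeq2 (adjusted p = 0.240 and 0.214) and without WT library 1 (adjusted p = 0.130 and 0.0827). Hsp90aa1 had 170 and 163 tags in WT and 167 and 172 in SgshKO NeuN+ nuclei, overlapping (limma, log2 change 0.03, adjusted p = 0.846). Relative to the median of start-site peaks it stood 0.56 higher, and it was called higher after scaling to tags in peaks (log2 change 0.32, adjusted p = 0.0103) or quantile normalization (0.60, adjusted p = 0.00792).

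In microglia Hsp90aa1 had 50.99 and 54.2 tags in WT and 61.5 and 111 in SgshKO, separate but spread widely in SgshKO, and Hsp90ab1 had 94.2 and 96.6 in WT and 113 in both SgshKO libraries. Neither start-site peak was called (limma, log2 changes 0.65 and 0.25, adjusted p = 0.266 and 0.681). An intronic microglia peak 4073 bp inside Hsp90ab1 fell from 31.1 and 28.8 to 7.79 and 12.1 tags (limma, log2 change -1.53 ± 0.45, adjusted p = 0.0294), a call lost in DESeq2 (adjusted p = 0.144) and without WT library 1 or 2 (adjusted p = 0.493 and 0.568). The Hsp90ab1 start lies 54 bp from Gm35399, a long non-coding RNA gene, so the start-site peak of Hsp90ab1 may hold tags of both.

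**Figure D3:**
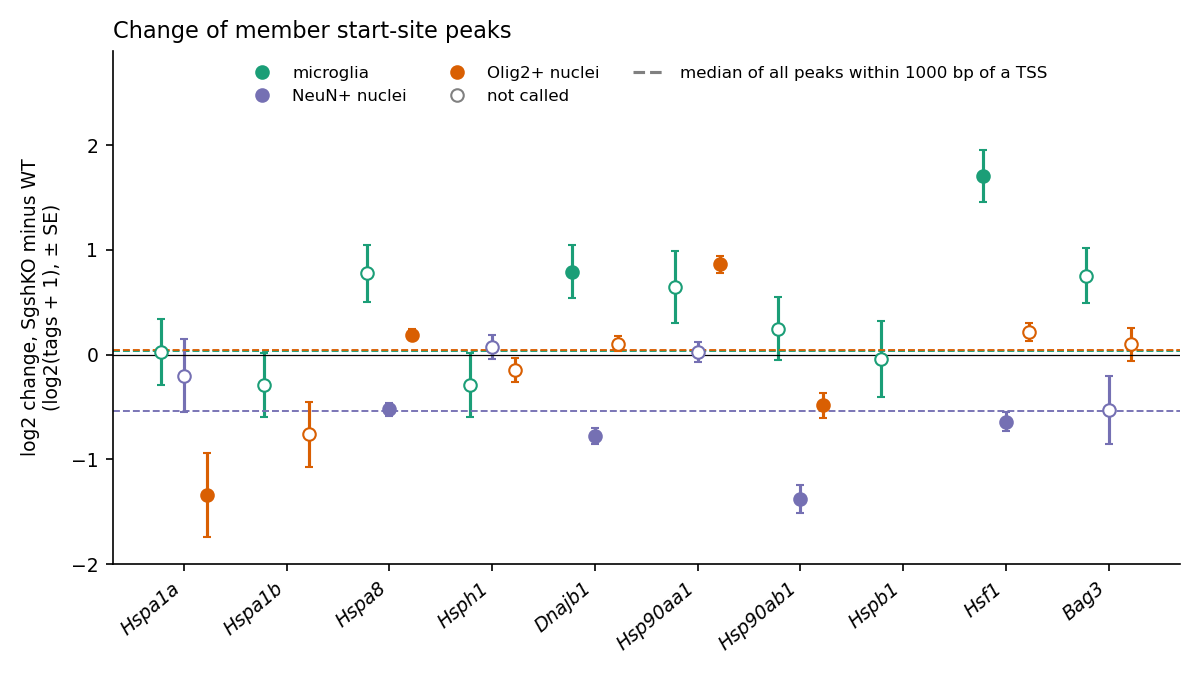
Log2 change (SgshKO minus WT, of log2(normalized tags + 1)) with its SE at the start-site peak of each member gene; filled points were called, and dashed lines give the median of all peaks within 1000 bp of a start site in each sort. Hsf1 in microglia lies at 1.70, and the 4 filled NeuN+ points lie between -0.52 and -1.38, around or below their dashed line at -0.53.

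Hspb1 encodes HSP27, a small heat-shock protein that binds unfolded proteins and actin. It had a start-site peak in microglia alone among the 3 tables, with 60.5 and 42.4 tags in WT and 64.9 and 37.1 in SgshKO, overlapping between genotypes (limma, log2 change -0.04, adjusted p = 0.964). The sign turned to 0.01 with median-of-ratios scaling and in edgeR, and to 0.02 in DESeq2. The nearest listed peak lay 7907 bp before the start in NeuN+ nuclei and 7950 bp before it in Olig2+ nuclei. The latter fell from 42.0 and 28.1 tags in WT to 14.8 and 13.3 in SgshKO (limma, log2 change -1.24 ± 0.25, adjusted p = 6.28e-04), a call lost when WT library 1 was left out (adjusted p = 0.0636).

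Of 166 distal member peaks, more than 1000 bp from a start, 39 lay inside another gene, so nearest-gene assignment does not show which gene they serve. These were 12 of 57 in microglia, 24 of 72 in NeuN+ nuclei and 3 of 37 in Olig2+ nuclei, with distances of up to 57408 bp. Hspb1 had 25 distal peaks in NeuN+ nuclei, 17 of them inside Srrm3, a neuronal splicing-factor gene, or Ywhag, which encodes a 14-3-3 protein, and 9 of the 25 were called lower, against 12.6% of all distal NeuN+ peaks called lower. These calls depend on the tool. Of the 72 distal NeuN+ member peaks, DESeq2 on recovered reads called 0 and edgeR called 7 lower and 5 higher. Over the whole NeuN+ table DESeq2 called 4900 peaks, and edgeR called 12416 lower and 17045 higher. A peak in an intron of Srrm3, about 32.5 kb before Hspb1, was called lower in each sort. In microglia (chr5:135855281-135855485) it fell from 63.95 and 66.9 tags in WT to 31.2 and 18.6 in SgshKO (limma, log2 change -1.40 ± 0.38, adjusted p = 0.0157). In NeuN+ nuclei it fell from 38.0 and 26.0 to 13.3 and 17.1 tags (limma, log2 change -1.01 ± 0.25, adjusted p = 0.00573), and in Olig2+ nuclei from 22.3 and 23.01 to 11.1 and 13.3 (limma, log2 change -0.85 ± 0.26, adjusted p = 0.0225). The genotypes did not overlap in any of the 3 sorts. The microglia call was lost without WT library 1 or 2 (adjusted p = 0.331 and 0.540), the NeuN+ call without WT library 1 (adjusted p = 0.144), and the Olig2+ call without WT library 1, WT library 2 or SgshKO library 1 (adjusted p = 0.112, 0.133 and 0.0834). DESeq2 called it in microglia, and not in NeuN+ or Olig2+ nuclei (adjusted p = 0.283 and 0.276).

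The distal peak with the highest mean was 1060 bp before Hsp90ab1 in microglia, with 226 and 192 tags in WT and 359 and 223 in SgshKO, overlapping and not called (limma, adjusted p = 0.367). In both nuclei sorts it was a peak about 15.8 kb after Hspb1. It fell from 136 and 117 to 95.6 and 83.2 tags in NeuN+ nuclei (limma, log2 change -0.49, adjusted p = 0.00733), a call lost in edgeR, in DESeq2, with 3 other scalings and without WT library 1, and with quantile normalization the change was 0.06. In Olig2+ nuclei it had 73.1 and 72.6 tags in WT and 75.01 and 100.4 in SgshKO and was not called (limma, adjusted p = 0.233). The largest distal fall in NeuN+ nuclei was in an exon of Clmp, a cell-adhesion gene, 18880 bp before Hspa8, from 14.2 and 9.60 to 2.09 and 3.17 tags (limma, log2 change -1.82 ± 0.37, adjusted p = 0.00160). It was not called without WT library 1 (adjusted p = 0.109) or in DESeq2 (adjusted p = 0.168). In microglia 2 peaks after Hspa8, 4151 and 10036 bp from its start, fell from 30.3 and 16.1 to 7.79 and 6.50 tags and from 14.7 and 25.4 to 5.19 and 5.57 (limma, adjusted p = 0.0471 and 0.0303), and both calls were lost without either WT library, with quantile normalization and in DESeq2. In Olig2+ nuclei 2 distal peaks of Dnajb1, 4226 bp before and 15524 bp after its start, were called lower from at most 9.85 tags (limma, log2 changes -1.19 and -1.36, adjusted p = 0.0218 and 0.0137). Both calls were lost with quantile normalization (adjusted p = 0.0681 and 0.0502), without WT library 1 (adjusted p = 0.181 and 0.179) and without WT library 2 (adjusted p = 0.242 and 0.171), and the second also without SgshKO library 2 (log2 change -0.87, adjusted p = 0.110).

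**Figure D4:**
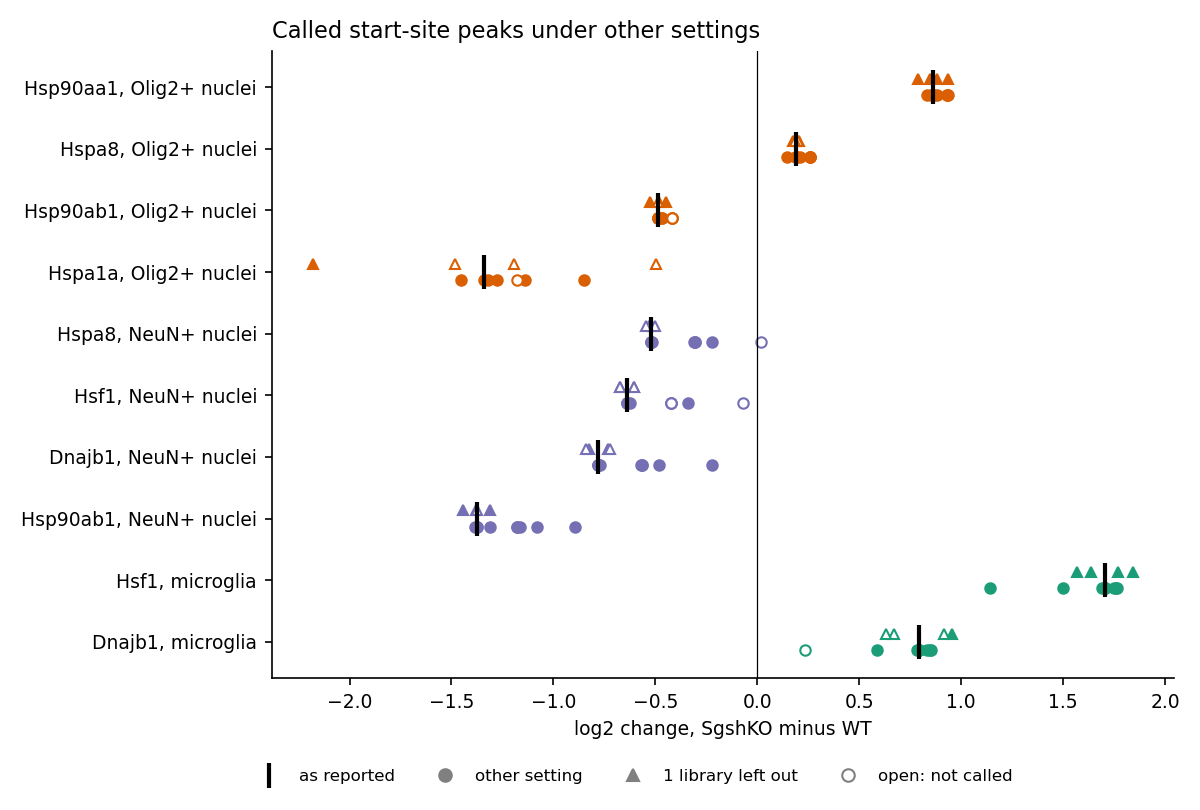
Log2 change (SgshKO minus WT) of the 10 start-site peaks that were called, under the 9 alternative settings (circles) and with 1 library left out (triangles). Open symbols were not called and the black bar is the reported value. Hspa1a in Olig2+ nuclei has 7 of the 9 settings. Hsf1 in microglia and Hsp90aa1 in Olig2+ nuclei have filled symbols throughout, and Hspa8 in NeuN+ nuclei reaches 0.02 with quantile normalization.

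Levels in WT differed between the sorts in a way that split the genes. These are a description, since peaks were called and tables made separately in each sort and the share of tags in peaks differed. Per kb of start-site peak, Bag3 had 1104 and 813 tags in microglia, 266 and 250 in Olig2+ nuclei and 82.1 and 60.7 in NeuN+ nuclei. Hspa1a had 190 and 211 tags per kb in microglia, 69.7 and 56.0 in Olig2+ nuclei and 29.2 and 45.1 in NeuN+ nuclei, and Hspa1b had 259 and 258 in microglia and 87.7 and 61.7 in Olig2+ nuclei. Bag3 and Hspa1a were thus highest in microglia without overlap, and Hspa1b was higher there than in Olig2+ nuclei. Hspb1 had 204 and 143 tags per kb in microglia. No start-site peak was listed for Hspb1 in either nuclei sort or for Hspa1b in NeuN+ nuclei, so no level could be compared there. For other members microglia were lowest. Hspa8 had 902 and 791 tags per kb in microglia, 1561 and 1546 for NeuN+ and 2429 and 2400 for Olig2+ nuclei. Dnajb1 had 895 and 754, 1438 and 1347, and 1878 and 1638 in the same order of sorts, and Hsp90ab1 had 259 and 265, 491 and 447, and 564 and 563. Each of these 3 genes had no overlap between sorts. For Hsp90aa1 the nuclei sorts overlapped, at 833 and 797 in NeuN+ and 788 and 808 in Olig2+ nuclei, above 152 and 161 in microglia. For Hsph1 microglia (323 and 273) overlapped NeuN+ nuclei (286 and 272), and Olig2+ nuclei were higher (692 and 618).

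Those orders depend in part on which peak is taken. Summed over every listed peak within 1000 bp and divided by the length covered, Hsp90aa1 in WT had a mean of 262 tags per kb in microglia, against 296 for NeuN+ and 265 for Olig2+ nuclei, so its gap closed. Dnajb1 turned, with 566 and 495 tags per kb in microglia above 454 and 429 for NeuN+ nuclei, and Hsp90ab1 came to overlap, with 219.98 and 219.69 in microglia between the NeuN+ libraries at 227 and 185. Hsf1, close in the 3 sorts at its start-site peak, came apart, with 418 and 367 in microglia, 326 and 336 for NeuN+ and 471 and 498 for Olig2+ nuclei. Hsph1 in microglia, at 373 and 350, no longer overlapped NeuN+ nuclei, at 296 and 284. For Bag3 these sums were 727, 71.4 and 127 tags per kb, and for Hspa1a 201, 37.2 and 56.1, which kept microglia highest. The microglia to NeuN+ ratio of these sums was 10.2 for Bag3 and 5.4 for Hspa1a, and between 0.872 and 1.25 for the 6 other genes with a start-site peak in both. Live sorting of microglia and light fixation of nuclei cannot be told apart from cell type here.

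Whether the genotype effect differed between sorts was tested at the peaks found in all 3 tables, matched where each peak covered at least 50% of the other and had 1 partner only, in 1 limma model of the 12 libraries, adjusted within each of 3 pairs of sorts over 16761 shared peaks. The pairs share libraries, so they are not independent. The model takes 1 spread per peak for all 3 sorts. In microglia alone the SE of the start-site change was 0.25 for Hsf1, 0.25 for Dnajb1 and 0.30 for Hsp90ab1. Each is above the SE given below for the differences of that gene. The SEs and p-values of differences that involve microglia may therefore be too small. Of 17 shared member peaks from 8 genes, 7 differed between microglia and NeuN+ nuclei (41.2%), against 42.5% of all shared peaks. Between microglia and Olig2+ nuclei 4 differed (23.5%), against 21.6%, and between NeuN+ and Olig2+ nuclei 6 differed (35.3%), against 31.7%. The start-site peaks of Hsf1, Dnajb1 and Hsp90ab1 differed in each pair, though with quantile normalization none of the 3 did between NeuN+ and Olig2+ nuclei (-0.25, -0.29 and -0.41, adjusted p = 0.320, 0.213 and 0.239). For Hsf1 the SgshKO effect in microglia exceeded that in NeuN+ nuclei by 2.34 ± 0.18 (log2, SE; limma, adjusted p = 8.96e-10) and that in Olig2+ nuclei by 1.49 ± 0.18 (adjusted p = 2.72e-06). For Dnajb1 the corresponding differences were 1.57 ± 0.18 and 0.69 ± 0.18 (limma, adjusted p = 2.86e-07 and 0.00900), and for Hsp90ab1 1.62 ± 0.21 and 0.73 ± 0.21 (limma, adjusted p = 1.42e-06 and 0.0154). Their size depended on the processing. Over 4 alternative settings the microglia minus NeuN+ value went as low as 1.21 for Hsf1, 0.45 for Dnajb1 and 0.97 for Hsp90ab1. The Hsf1 value for microglia minus Olig2+ nuclei went as low as 0.96. Both Hsf1 values and both microglia minus NeuN+ values stayed called under each of 4 alternative settings and 12 leave-outs, whereas the microglia minus Olig2+ values of Dnajb1 and Hsp90ab1 were lost with quantile normalization (0.16 and 0.57, adjusted p = 0.501 and 0.0856). They were also lost without Olig2+ WT library 1 (adjusted p = 0.0747 for Dnajb1 and 0.0597 for Hsp90ab1), and for Hsp90ab1 without Olig2+ WT library 2 or SgshKO library 2 (adjusted p = 0.0581 and 0.0619). The Bag3 start-site effect was 1.28 ± 0.35 higher in microglia than in NeuN+ nuclei (limma, adjusted p = 0.00452), and was not called with quantile normalization (0.74, adjusted p = 0.129) or without NeuN+ SgshKO library 2 (0.79, adjusted p = 0.0509). The Srrm3 intron peak near Hspb1, lower in each sort, had no called difference between sorts (limma, adjusted p = 0.484, 0.378 and 0.80).

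A wider list of 66 other chaperone and co-chaperone genes, chosen with earlier results of these data known, gives the setting. Near their start sites 12 of 98 peaks were higher in microglia (12.2%), 2 and 36 of 104 were higher and lower in NeuN+ nuclei (1.92% and 34.6%), and 9 and 15 of 97 in Olig2+ nuclei (9.28% and 15.5%), to be read against the shares of all start-site peaks above. Taking only the peak nearest the start of each gene, 10 of 59 genes rose in microglia, with a median log2 change of 0.33. Shares and medians over the nearest peaks of all genes were not computed, so these per-gene values have no like base. In NeuN+ nuclei 2 rose and 27 fell of 61 (median -0.44), and in Olig2+ nuclei 8 rose and 8 fell of 56 (median -0.01). The smallest p-values in microglia belonged to Ahsa2, which encodes an activator of HSP90, with 108 and 103 tags in WT and 435 and 767 in SgshKO (limma, log2 change 2.45, adjusted p = 2.44e-07), Bag1 (1.39, adjusted p = 0.00139) and Cdc37 (1.23, adjusted p = 0.00407). In NeuN+ nuclei these genes also led, as falls: Ahsa2 went from 265 and 278 to 142 and 149 tags (limma, log2 change -0.90, adjusted p = 2.72e-06), with Bag1 at -0.59 and Cdc37, the kinase co-chaperone of HSP90, at -1.05. Chordc1 and Cct5 rose there by 0.32 and 0.73 (limma, adjusted p = 0.0376 and 0.0478). In Olig2+ nuclei Dnajc13, Dnajc3 and Hspa2 rose by 0.65, 0.41 and 0.30, and Stip1, Cryab and Dnajb4 changed by -0.55, -0.64 and -1.05. Cryab encodes alpha-B crystallin, a small heat-shock protein of oligodendrocytes, and Stip1 encodes HOP, the adaptor between HSP70 and HSP90.

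Immediate-early genes, 13 in the list, mark recent stimulation, which tissue handling can also evoke. In microglia 1 of 12 with a start-site peak rose, in NeuN+ nuclei 7 of 13 fell, and in Olig2+ nuclei 4 of 12 rose, with median log2 changes of 0.32, -0.65 and 0.13. These counts and medians take 1 peak per gene. Over every start-site peak of the list, 2.86% rose in microglia, 39.4% fell in NeuN+ nuclei and 20% rose in Olig2+ nuclei. Of all start-site peaks 8.59% rose in microglia, 44.9% fell in NeuN+ nuclei and 12.7% rose in Olig2+ nuclei. Their part in the member values was not tested.

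Across the 12 libraries, the shared start-site peaks of the members (10 peaks of 7 genes) were averaged after standardizing each, and genes whose profile was among the most like this average were Zswim6 (Pearson r = 0.980), Rcl1 (0.977), Mfn1 (0.976) and Ccnl1 (0.975), of 10536 shared start-site peaks with a median r of 0.546. The averaged profile was lowest in both SgshKO NeuN+ libraries, at -1.02 and -1.06, and highest in both SgshKO microglia libraries, at 0.52 and 0.56. Member peaks followed their own average unequally, with r from 0.90 for a Dnajb1 peak to -0.24 for an Hsph1 peak. Another peak of each of these genes had an r of 0.63 and 0.32. Each member peak is part of the average, which raises its r. The libraries share sort, depth and genotype, so these values describe likeness and carry no p.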

How the data were processed

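The authors deposited 1 table per sort, with peaks merged over its WT and SgshKO libraries per the tables' names. The deposited signal is tags per peak, scaled per the file headers so that each library totals 10000000. The authors' Peak Score, a score, was not used. Build mm10, Bowtie2 and HOMER are named in the submitters' processing notes, without versions; how reads were shifted, deduplicated or placed when they mapped to several sites is not stated in the labels. Dividing out the scaling gave whole reads for 100% of values (within 0.01), so edgeR 4.0.16 and DESeq2 1.42.0 served as alternatives on recovered reads. Each of the 12 tag columns was used. Limma 3.58.1 in R 4.3.3 (intensity trend, two-sided) was fitted to log2(tags + 1), which understates changes of low peaks; no peak was filtered out, and ± after a log2 change is the SE. Shared peaks came from bedtools 2.31.1.

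Members, lists and tests were chosen with earlier results of these data known. Every member peak was counted. Described singly were each gene's peak nearest its start (within 1000 bp), called member peaks, and the highest distal peak per table. At most 3 other chaperones per direction and table are named. Genes were ranked by the likeness of their start-site profile to the members' average, and 1 of the first 5 is not reported here. Other member peaks with values were picked after seeing them. Alternatives were pseudocounts 0.5 and 5, leaving out the lowest 25% of peaks, 3 other scalings, edgeR, DESeq2, the replicate number as a block, an overlap of 80%, and leaving out each library, where the lone library is assumed to vary like the others. The fits were tested on simulated data. Proteins and promoters of Hspa8, Hsp90aa1, Hsp90ab1 and Hsf1 were not analysed here.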

Additional observations from a re-analysis of the deposited data

Results flagged for a closer look

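The difference in genotype effect between sorts, from 1 limma model of the 12 libraries, was called for 17 combinations of member peak and pair of sorts. That model takes 1 spread per peak for all sorts, so calls that involve microglia may come too easily. Values are differences of log2 changes (SgshKO minus WT), first sort minus second. At the Hsf1 start site they were 2.34 for microglia minus NeuN+ nuclei, 1.49 for microglia minus Olig2+ nuclei and -0.85 for NeuN+ minus Olig2+ nuclei. At the Dnajb1 start site they were 1.57, 0.69 and -0.89 in the same order, and at the Hsp90ab1 start site 1.62, 0.73 and -0.89. For Hspa8, a peak 424 bp before the start gave 0.98 for microglia minus NeuN+ nuclei and -0.71 for NeuN+ minus Olig2+ nuclei, and a peak 504 bp after it gave 1.37 and -1.03. The Bag3 start site gave 1.28 and a Dnajb1 peak 169 bp after a start 0.98 for microglia minus NeuN+ nuclei. Near Hspb1, a peak 15874 bp after the start gave -1.06 for microglia minus Olig2+ nuclei and one 10537 bp before it 1.61 for NeuN+ minus Olig2+ nuclei. The groups have 2 libraries each, too few to look for outlying libraries.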

How the results depend on the processing

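The count of member peaks called was 6 in microglia and became 16 with scaling to tags in peaks, 10 with median of ratios and 10 in edgeR, with DESeq2 giving 4, and it ran from 1 to 21 with 1 library left out. The 28 calls in NeuN+ nuclei became 10 with quantile normalization and 3 in DESeq2, and 0 to 11 with 1 library left out. The 0 holds for the whole NeuN+ table without either SgshKO library. The 14 calls in Olig2+ nuclei became 7 and 4, and 2 to 16; DESeq2 gave no adjusted p for 35 of the 59 Olig2+ member peaks. The 17 called differences between sorts became 10 with quantile normalization. At an overlap of 80%, where 5278 peaks are shared, only 2 of the 17 were at peaks still matched. Those 2, Bag3 at its start and Dnajb1 169 bp after a start, both microglia minus NeuN+ nuclei, stayed called. The others had no matched peak to test at that overlap. The cause of the other shifts was not tested.

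The labels do not say whether replicate numbers pair the libraries. Deviations of same-numbered libraries correlated at 0.042, 0.0036 and 0.00069, which cannot show whether they were prepared together. With the number as a replicate block, member calls were 12 in microglia, 28 in NeuN+ and 15 in Olig2+ nuclei, and 18 differences between sorts. Calls over all microglia peaks went from 6765 to 14489 with that block.

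Direction turned, with no call, for Hspa1a in microglia (-0.18 with in-peak scaling, -0.079 with quantile normalization, and -0.17 to 0.22 with 1 library left out, below 0 without WT library 1 at -0.049). It also turned for Hspb1 in microglia (0.012 with median of ratios, 0.013 in edgeR, 0.022 in DESeq2, and -0.44 to 0.35 with 1 library left out, above 0 at 0.21 without WT library 1). In NeuN+ nuclei it turned for Hsp90aa1 (-0.0044 to 0.058 with 1 library left out) and Hspa1a (0.062 with in-peak scaling, and -0.48 to 0.076 with 1 library left out). With quantile normalization, values called at first became 0.020 for Hspa8 and 0.056 for the peak 15858 bp after Hspb1 in NeuN+ nuclei, and the Hspa8 difference of microglia minus NeuN+ nuclei became -0.0071. Peaks under about 10 tags rest on few reads.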
